A study of Mus musculus with 18 samples.

Results

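MicroRNA (miRNA) profiles of mouse lung and testicle were compared over the 12 lung and testicle libraries of a series of 18, whose other 6 libraries are eyes. The lung group held 6 libraries, 3 from left and 3 from right lungs, and the testicle group likewise held 3 left and 3 right libraries. Libraries were assigned by the organ named in their labels, and both sides were combined. All were from male C57BL/6 mice aged 8 to 12 weeks, with no treatment or genetic change named in the labels. Each library is whole-organ total RNA, so cell types are mixed and no gate or sort was applied. The labels do not say whether a left and a right library came from the same mouse. The p values therefore measure the spread between these samples, and if sides were shared, n = 6 overstates the replication.

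A miRNA is cut from a hairpin precursor as a short strand, from the 5′ arm (5p) or the 3′ arm (3p), and guides an Argonaute protein to messenger RNAs. Pairing runs mainly through the seed, bases 2 to 8 of the strand, so miRNAs with the same seed can share targets. In the lung, miRNAs of epithelium (the 200 family), endothelium (miR-126a), leukocytes (miR-150, miR-223) and multiciliated airway cells (miR-34 and miR-449) are known. The testicle is known for miR-34 and miR-449 in meiotic and later germ cells, for the fast-evolving X-linked miR-506 family in germ cells and for miR-202 in gonads.

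The sequences below carry the main contrasts. They are RefSeq mature sequences of GRCm38.p6, written 5′ to 3′ with the seed in capitals. The 4 shown first are strands that were higher in lung. miR-200c-3p and miR-141-3p come from neighbouring hairpins, and their seeds are different.
miR-1298-5p: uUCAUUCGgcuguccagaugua
miR-200c-3p: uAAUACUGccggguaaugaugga
miR-141-3p: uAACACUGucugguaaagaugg
miR-146a-5p: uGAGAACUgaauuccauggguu
The next strands were higher in testicle. The miR-34 and miR-449 strands share 1 seed, the other strand of the miR-34b hairpin has another, and the 3 after it are of the miR-506 family, and miR-202-5p closes the set.
miR-34a-5p: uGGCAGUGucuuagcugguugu
miR-34b-5p: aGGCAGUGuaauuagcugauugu
miR-449a-5p: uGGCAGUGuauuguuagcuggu
miR-34b-3p: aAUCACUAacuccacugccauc
miR-470-5p: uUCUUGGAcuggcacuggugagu
miR-465a-3p: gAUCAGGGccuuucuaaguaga
miR-871-5p: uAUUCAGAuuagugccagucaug
miR-202-5p: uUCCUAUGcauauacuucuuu
The last pair have the same seed and opposite directions, miR-10a-5p being higher in lung and miR-10b-5p in testicle.
miR-10a-5p: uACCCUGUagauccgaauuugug
miR-10b-5p: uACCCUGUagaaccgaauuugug

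Each table listed 1431 miRNA names, of which 489 had enough counts to be tested and 942 did not. With edgeR's quasi-likelihood test, at a Benjamini-Hochberg adjusted p of 0.05, 190 miRNAs were higher in lung (38.9% of those tested) and 216 were higher in testicle (44.2%). The other 83 were not called. Of the calls, 158 were at least 2-fold higher in lung and 194 at least 2-fold higher in testicle. The 6 libraries of an organ lay wholly above those of the other for 316 miRNAs, or 64.6% of those tested. With 83% of the tested miRNAs called in either direction, the direction and size of a difference say more about a group than its call. Counts of called list members below are to be read against the 38.9% and 44.2%. The median log2 fold change (lung minus testicle) of all tested miRNAs was -0.25. It moved to -0.36 with relative log expression (RLE) scaling and to -0.17 with left testicle 1 as reference, so small differences depend on the scaling.

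**Figure D1:**
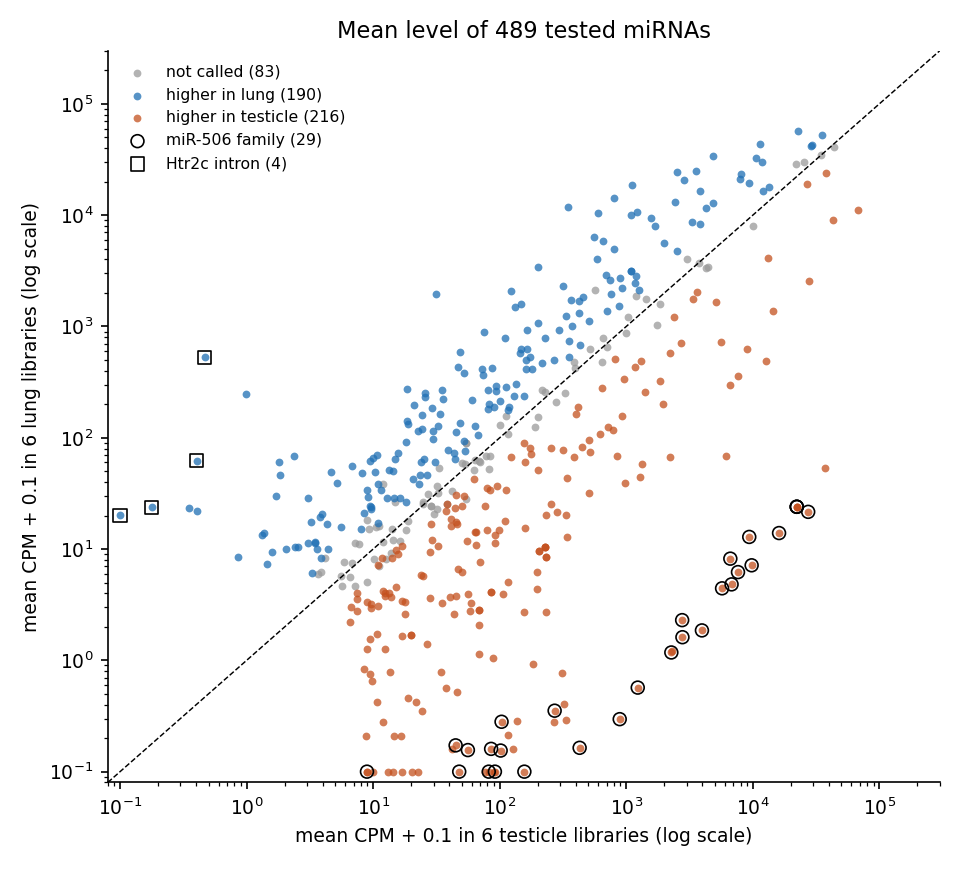
Mean counts scaled to the library (CPM, counts in each 1e6) plus 0.1 of each of the 489 tested miRNAs in 6 testicle libraries (x axis, log scale) and 6 lung libraries (y axis, log scale). Points above the dashed line of equality are higher in lung; the 29 tested miR-506 family members (circles) lie far below it and the 4 tested Htr2c intron members (squares) far above it.

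Levels below are CPM after scaling by edgeR's trimmed mean of M values (TMM), unless given as CPM of library totals, and a fold change is lung minus testicle on the log2 scale. Libraries of the same organ resembled each other more than those of the other organ. Log2 CPM correlated across miRNAs at 0.951 to 0.988 between lung libraries, 0.956 to 0.982 between testicle libraries and 0.545 to 0.657 between organs, as a description over miRNAs, which are not independent replicates. Total counts were 2538402 to 2790471 per lung library and 952608 to 1893132 per testicle library, so a lung value rests on more counts. Right lung 1 stood apart: it had the fewest names with a count, 696 against 782 to 852 in the other lungs, and the lowest scaling factor, 0.761. Without it, 191 miRNAs were called higher in lung and 228 higher in testicle. The labelled organs were checked against marker miRNAs, as summed CPM of library totals. Epithelial markers were at 23140 to 38750 in lung and 1973 to 3123 in testicle, and leukocyte markers at 9252 to 14050 against 752 to 1416. Germ cell markers, here 12 miR-506 family names without miR-34 and miR-449, were at 14.6 to 106.8 against 45220 to 73670. The miR-34b, miR-34c and miR-449 names, summed as ciliated cell markers and also known from germ cells, were higher in testicle. They were at 10070 to 26100 in lung and 108600 to 148000 in testicle. Fewer cells of a type and less miRNA per cell cannot be told apart in these bulk samples.

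The epithelial 200 family holds back the transition of epithelium to mesenchyme by lowering Zeb1 and Zeb2. All 9 tested members of the 10 in the tables were higher in lung, with a median log2 fold change of 4.10 against -0.25 over all tested miRNAs. The precursors of miR-200c (chr6:124718322-124718390, GRCm38.p6, minus strand) and miR-141 (chr6:124717914-124717985) lie in an intron of the antisense gene Gm15884. miR-200c-3p was at 10000 to 12650 CPM in lung, with a median of 12160, and at 265.9 to 457 CPM in testicle, with a median of 339.1. The lowest lung library stood far above the highest testicle library. The difference was 5.08 (SE 0.19, adjusted p = 2.23e-11). miR-141-3p was at 1074, 1948 and 2712 CPM (lowest, median, highest) in lung and at 20.6, 33.3 and 41.6 in testicle, a difference of 5.96 (SE 0.31, adjusted p = 2.57e-10). The cluster of miR-200a, miR-200b and miR-429 on chromosome 4 differed less, with log2 fold changes of 3.15 to 4.10 over 5 tested strands, against 5.08 to 6.38 over 4 strands of the miR-200c and miR-141 cluster. Right lung 1 was at 1811 CPM of miR-200a-3p where the other lungs were at 5638 or above. For miR-429-3p of the same cluster it was the highest lung, at 15000 CPM against 8606 to 10680 in the others.

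The miRNA with the largest log2 fold change towards lung among the named ones was miR-1298-5p, whose precursor (chrX:147064905-147065002, plus strand) lies in an intron of Htr2c, the gene of a serotonin receptor. It was at 292.5 to 723 CPM in the 6 lungs. The testicle libraries held 4 counts in all, and 3 of the 6 held none. The ratio of the CPM of totals was 1165, with a 95% counting interval of 454.6 to 4275 that covers counting error only. Of 9 names of that intron in the tables, 4 were tested, and the other 3 were also called higher in lung. With 0 to 2 counts each over the testicles, these 3 had enough counts to be tested only through the lungs. Their shared direction is therefore no added support. miR-1264-5p was at 29.9 to 86.2 CPM in lung and at most 1.02 in testicle, and miR-764-5p at 19.1 to 31.4 against at most 0.468. miR-1264-3p had 311 counts over the lungs and 0 over the testicles, which makes it at least 57.4-fold higher in lung against a floor of 3 counts over the organ. The list's median log2 fold change was 8.08, or 7.46 with miR-1264-3p set to that bound. miR-490-5p, from an intron of the muscarinic receptor gene Chrm2, was at 106.3 to 147.7 CPM in 5 lungs and 821.4 in right lung 1, against at most 1.61 in testicle. DESeq2 gave it no adjusted p.

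Leukocyte and inflammatory miRNAs were mostly higher in lung: of 12 tested members of 16, 9 were higher in lung, 2 were higher in testicle and 1 was not called, with a median of 2.30. miR-146a-5p, which restrains signalling downstream of Toll-like receptors, was at 9974, 12180 and 26780 CPM (lowest, median, highest) in lung and at 648, 800.9 and 1015 in testicle. Its highest value was again that of right lung 1, and the organs did not overlap. The difference was 4.15 (SE 0.27, adjusted p = 2.59e-09). miR-150-5p, a miRNA of mature lymphocytes, was 17.4-fold higher in lung (log2 4.12, SE 0.19, adjusted p = 1.09e-10). The myeloid miR-223-3p was 7.08-fold higher, and miR-142a-3p, found across blood cell lineages, 3.99-fold higher. miR-342-3p went against the list at 900.7 to 1695 CPM in lung and 2140 to 2583 in testicle (log2 -0.96, adjusted p = 0.000169), and miR-147-3p was low in both organs.

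Endothelial, smooth muscle and mesenchymal miRNAs gave list medians of 2.43, 0.99 and 1.08. Both tested strands of miR-126a, from the endothelial gene Egfl7, were higher in lung. miR-126a-3p took the largest share of lung counts, 5.47% ± 0.529 (SD, n = 6), and 2.34% ± 0.207 of testicle counts. In CPM it was 2.50-fold higher in lung (log2 1.32, SE 0.17, adjusted p = 3.73e-06), while the 5p strand of the hairpin was 11.6-fold higher (log2 3.54, SE 0.23, adjusted p = 1.91e-09). miR-143-3p, the main smooth muscle miRNA, was at 35240 to 58640 CPM in lung and 23300 to 34310 in testicle. Its difference of 0.52 (adjusted p = 0.00678) was 0.40 without left testicle 1 and no longer called (adjusted p = 0.0534). miR-145a-5p, of the same cluster, was 0.99 higher with overlapping organs (adjusted p = 0.0146). It lost its call without left lung 2 (adjusted p = 0.0884), left lung 3 (0.111), right lung 3 (0.146) or right testicle 3 (0.0517), and with library totals as the scale (0.0876). Of the mesenchymal miR-199 and miR-214 list, 3 of 6 members were higher in lung, against 38.9% of all tested miRNAs, and 3 were not called. The higher ones include miR-199a-3p and miR-199b-3p, which have identical counts in all 12 libraries. These 2 names are 1 measurement, and both enter the list's median.

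Clusters that act together in vessels and epithelium stood high in lung as a whole. All 10 tested strands of the miR-23/27/24 clusters were higher in lung, with log2 fold changes of 2.27 to 3.50 and a median of 2.87. miR-23a-3p was at 22300, 23010 and 30810 CPM (lowest, median, highest) in lung and 1959, 2617 and 3123 in testicle. miR-24-3p was at 22590, 27670 and 62610 CPM in lung and 2858, 4886 and 7179 in testicle. Both highest lung values were those of right lung 1, and neither miRNA overlapped between the organs. All 7 tested miR-181 strands, among them regulators of lymphocyte development, were higher in lung with a median of 2.07. miR-222-3p, which with miR-221 lowers the cell cycle inhibitor Cdkn1b, was 16.8-fold higher in lung (log2 4.07, SE 0.24, adjusted p = 7.59e-10). miR-221-5p was not called: left lung 1 and right lung 1 were at 0.867 and 0 CPM, where the other lungs were at 40.5 to 65.8. It was called higher in lung without either of them (adjusted p = 0.0182 and 0.0149).

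The let-7 family with miR-98, which marks differentiated cells, was mostly higher in lung. Of 17 tested names of 21, 12 were higher in lung, 1 was higher in testicle (let-7c-1-3p, with 51 lung and 79 testicle counts) and 4 were not called, with a median of 1.26. The count higher in lung was 10 to 15 over the other scalings and DESeq2. let-7i-5p was at 21930 to 46730 CPM in lung and 6125 to 14340 in testicle (log2 1.64, SE 0.22, adjusted p = 7.37e-06), with no overlap. let-7a-5p was at 21490 to 45750 CPM in lung and 15670 to 38020 in testicle, and was not called (log2 0.25, adjusted p = 0.357). let-7k, a minor member, was 24.0-fold higher in lung. Of the miR-30 family, which is abundant in epithelia, 8 of 11 tested strands were higher in lung, led by miR-30c-5p at 6.86-fold. miR-30c-1-3p and miR-30e-3p were higher in testicle, the latter narrowly (log2 -1.30, adjusted p = 0.0382). Its lung level was uneven, with a mean of 162.2 CPM and an SD of 207.8. With DESeq2, 1 strand of the family was called higher in testicle. The 17 tested names hold let-7a-1-3p and let-7c-2-3p, which have identical counts in all 12 libraries.

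**Figure D2:**
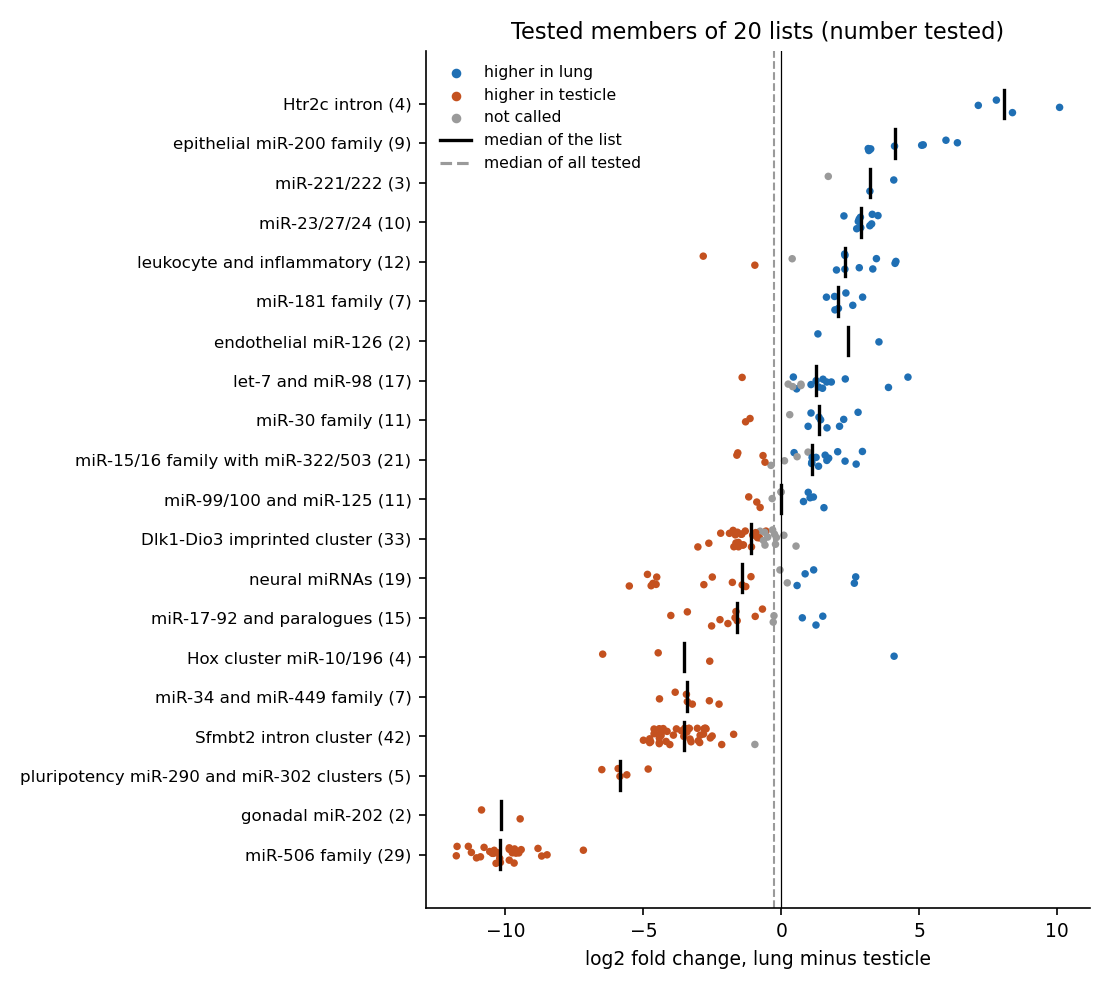
Log2 fold change (lung minus testicle, x axis) of each tested member of 20 of the 35 lists, coloured by call, with the list's median as a black bar and the median of all tested miRNAs, -0.25, as a dashed line. The miR-200 family, miR-23/27/24 and miR-181 lists lie to the right of 0 in every tested member. The miR-506 family, the miR-34 and miR-449 family, miR-202 and the miR-290 and miR-302 list lie to the left. The tested strands of that last list are all of the miR-290 cluster.

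In testicle, the X-linked miR-506 family held 11.0% to 15.4% of a library's counts, with the 3 identical names of miR-465a-3p, miR-465b-3p and miR-465c-3p counted once. In lung it held 0.00404% to 0.0254%. All 29 tested names of 37 were higher in testicle, with log2 fold changes of -11.78 to -7.18 and a median of -10.21. With the 5 members that had no lung count set to their bound the median was -9.86. These 5 had enough counts to be tested only through the testicles, so their direction is no added support. The 8 names that were not tested held 45 counts in lung and 21139 in testicle. miR-470-5p (precursor chrX:66813951-66814025, minus strand, intergenic) was at 14020, 27450 and 41380 CPM (lowest, median, highest) in testicle and at 9.19, 14.04 and 49.9 in lung. The lowest testicle library lay far above the highest lung library. The difference was -10.31 (SE 0.58, adjusted p = 4.92e-10). miR-742-3p had 1428 testicle counts and no lung count, which makes it at least 860-fold higher in testicle. miR-465a-5p had 8034 and 3 counts, a ratio of 4837 with a 95% counting interval of 1654 to 23460.

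The small lung signal of miR-506 family members and miR-202 differed between lungs. Over 16 of these miRNAs with at least 1000 CPM in testicle, the lung level had a median of 0.0188% of the testicle level in right lung 1 and 0.0312% to 0.155% in the other 5 lungs. Right lung 3 and left lung 1 were highest (0.155% and 0.117%), and for miR-202-5p, 1 of the 16, they were at 108.4 and 100.1 CPM. Where these lung counts came from was not tested. Without these 2 lungs, 185 miRNAs were higher in lung and 215 higher in testicle.

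The miR-34 and miR-449 family is needed for multiciliated cells and for sperm formation. All 7 tested members of 10 were higher in testicle, with log2 fold changes of -4.42 to -2.26. The level of the family in lung was not low: its members summed to 17340 to 36320 CPM of totals there and to 153100 to 199300 in testicle. miR-449a-5p (precursor chr13:113037534-113037624, plus strand, in an intron of Cdc20b) was at 7598, 10300 and 17160 CPM in lung and 42030, 73910 and 86980 in testicle (lowest, median, highest). It was the most abundant miRNA of testicle and still among the well-measured miRNAs of lung. The difference was -2.61 (SE 0.24, adjusted p = 1.22e-07). miR-34a-5p, from a separate precursor on chromosome 4 (chr4:150068454-150068555), differed least of the family (log2 -2.26, SE 0.19). Members of the miR-34b and miR-34c hairpins on chromosome 9 (chr9:51103562-51103645 and chr9:51103034-51103110, within an intron of Btg4 on the opposite strand) differed by -4.42 to -3.41. miR-34b-5p was at 70.9, 374.7 and 646.2 CPM in lung and 6445, 7654 and 9356 in testicle (lowest, median, highest). The organs did not overlap, and left lung 1 and right lung 1 were the lowest lungs.

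miR-202-5p, an abundant miRNA of gonads, was at 28830 to 43720 CPM in testicle and 11.6 to 108.4 in lung, and held 3.81% ± 0.325 (SD, n = 6) of testicle counts. The difference was -9.47 (SE 0.61, adjusted p = 1.95e-09). Outside the miR-506 family and miR-202, named miRNAs with hardly a lung count included miR-7242-3p, with 2941 testicle and 3 lung counts (ratio 1771, counting interval 605.3 to 8591) and miR-7223-5p, with 774 and 0 counts.

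Imprinted and pluripotency clusters also stood higher in testicle. Of the Sfmbt2 intron cluster, a large rodent cluster transcribed from the paternal allele, 41 of 42 tested names (67 in the tables) were higher in testicle and 1 was not called, with a median of -3.52. miR-467a-5p was at 635.7 to 877.3 CPM in lung and 4735 to 6425 in testicle (log2 -2.95, SE 0.17, adjusted p = 5.75e-10). Many of these names are near-identical copies, and 13 of them fall into 6 sets of identical counts, so the names are not independent measurements. Of the list of the miR-290 and miR-302 clusters, known from pluripotent cells, 5 of 19 names were tested, all of the miR-290 cluster. No miR-302 strand was tested. All 5 were higher in testicle with a median of -5.85. With 3 to 17 counts each over the lungs, they had enough counts to be tested only through the testicles. Their shared direction is therefore no added support. Their testicle levels were low, miR-293-3p being the highest named one at 59.1 to 77.7 CPM against 0.433 to 1.69 in lung.

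The maternally expressed Dlk1-Dio3 cluster gave smaller differences. Of 33 tested names of 96, 22 were higher in testicle, none higher in lung and 11 not called, with a median of -1.08. The count was 20 to 25 over the other scalings and DESeq2. Left lung 2 and right lung 1 stood apart from the other lungs: the cluster's names summed to 5825 and 5791 CPM of totals there, to 2001 to 2618 in the other 4 lungs and to 4780 to 7292 in testicle. miR-541-5p was 6.19-fold higher in testicle (adjusted p = 0.000108) and miR-379-5p 2.70-fold (adjusted p = 0.000639). miR-127-3p and miR-411-5p were not called (adjusted p = 0.618 and 0.0572) and were called higher in testicle without right lung 1 (log2 -0.87 and -1.30, adjusted p = 0.00908 and 0.000476). Without both of these lungs their differences were -1.14 and -1.57 (adjusted p = 0.000292 and 1.23e-05). miR-411-5p also gained its call without left lung 2 (adjusted p = 0.0239) or left testicle 1 (0.0345). With all 12 libraries, it was called higher in testicle with RLE scaling (0.0485), library totals (0.0183) and DESeq2 (0.0335). The same held with a filter of 10 CPM in an organ (0.0479), 1 name per set of identical counts (0.0363) and thinning (0.0194). Of miR-17-92 and its paralogues, which drive proliferation, 10 of 15 tested strands were higher in testicle and 3 higher in lung. miR-18a-5p was 16.1-fold higher in testicle (log2 -4.01, SE 0.38, adjusted p = 1.26e-07), while miR-92a-3p was 1.69-fold higher in lung (adjusted p = 0.00246). miR-92a-3p has precursors on chromosomes 14 and X, and its counts cannot be assigned to either.

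Several miRNAs best known from brain or eye were higher in testicle, but not all. The 3 tested strands of the sensory cluster of miR-183-5p were higher in lung, with log2 fold changes of 1.16 to 1.42. The summed markers of neurons and retina, which are miR-124, miR-9 and this sensory cluster, overlapped between the organs. They were at 2532 to 4813 CPM of totals in lung and 2370 to 5045 in testicle. The sensory cluster alone summed to 2513 to 4702 in lung, nearly all of that sum, and to 1001 to 2549 in testicle. The overlap therefore does not show similar levels of miR-124 and miR-9. Of 19 tested names of the neural list of 37, 12 were higher in testicle, 5 were higher in lung and 2 were not called. Over all tested miRNAs, 44.2% were higher in testicle and 38.9% higher in lung. miR-138-5p, a brain-enriched miRNA, was at 1260, 1288 and 1322 CPM in testicle and at 12.2, 51.2 and 60.1 in lung (lowest, median, highest). The testicle libraries agreed closely, and the lowest lung value was in right lung 1. The difference was -4.85 (SE 0.33, adjusted p = 3.93e-09). miR-124-3p was 22.9-fold higher in testicle and miR-135a-5p 25.2-fold, whereas miR-338-3p was 6.25-fold higher in lung. miR-204-5p, of pigment epithelium, was at 7774 to 19290 CPM in testicle, 155.7 to 524.6 in 5 lungs and 1695 in right lung 1. Its relative miR-211-5p was not called (adjusted p = 0.345), and was higher in testicle without right lung 1 (log2 -1.90, adjusted p = 0.000595). Markers of pigment epithelium summed to 1632 CPM of totals in right lung 1, 693.6 in left lung 2 and 186.9 to 271 in the other 4 lungs, and the part of this in the result was not tested. Without these 2 lungs, 185 miRNAs were higher in lung and 234 higher in testicle. All 6 tested miRNAs of the lens, cornea and keratinocyte list were higher in testicle, among them miR-184-3p at 2298 to 12110 CPM against 8.23 to 208 in lung.

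Red cell miRNAs were not called in any of 6 tested names. miR-451a was at 216 CPM in left testicle 1 and 308.6 in right testicle 1, at 4405 to 9319 in the other 4 testicles and at 1583 to 6785 in lung. Without the 2 low testicle libraries it was higher in testicle (log2 -1.03, adjusted p = 0.018), as were the identical names miR-486a-5p and miR-486b-5p (log2 -0.82, adjusted p = 0.00904). Over all miRNAs, 186 were higher in lung and 225 higher in testicle without these 2 libraries. Of the striated muscle list, 2 of 5 tested names were higher in testicle, a share below the 44.2% of all tested miRNAs, and 1 of 5 under 3 of the other scalings. miR-499-5p was 16.7-fold higher in testicle. miR-1a-3p, the other one (log2 -1.19, adjusted p = 0.0447), lost its call with library totals as the scale (0.0636) and without any 1 of right lung 1 (0.0812), right lung 2 (0.0801), left testicle 2 (0.107), left testicle 3 (0.0804), right testicle 2 (0.101) or right testicle 3 (0.067).

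**Figure D3:**
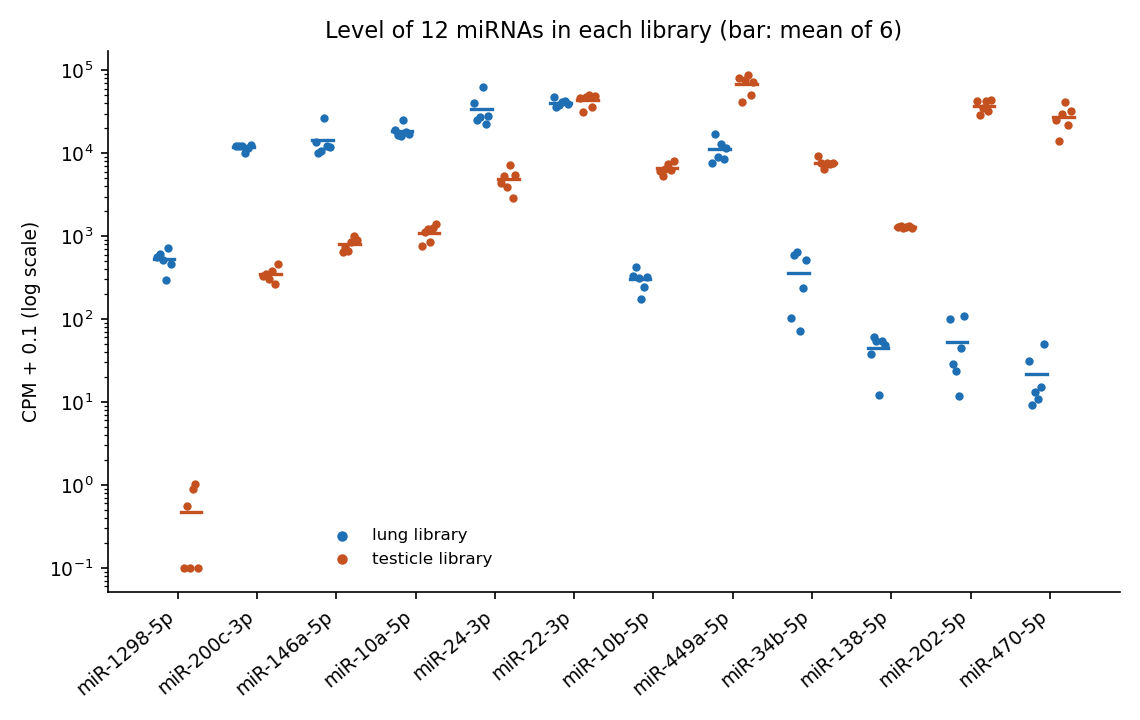
CPM plus 0.1 (y axis, log scale) of 12 miRNAs in each of 6 lung (blue) and 6 testicle (orange) libraries, with the mean of 6 as a bar. The libraries of miR-22-3p overlap between the organs, while miR-1298-5p, with no count in 3 testicle libraries, and miR-470-5p stand furthest apart in opposite directions.

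On the X chromosome the miR-506 family and the other miRNAs pointed opposite ways. Of 45 other tested X-linked names, 32 were higher in lung and 4 higher in testicle (miR-672-5p, miR-672-3p, miR-676-5p and miR-384-5p), with a median of 1.65. Of 401 autosomal names, 158 were higher in lung and 173 higher in testicle, with a median of -0.18. The X-linked names included miR-652-3p at 7881 to 20100 CPM in lung and 1723 to 3683 in testicle (log2 2.43, SE 0.27, adjusted p = 8e-07). They also included miR-542-5p, 450b-3p and 322-3p of the cluster with miR-503, of which 10 of 12 tested strands were higher in lung and none in testicle. The 7 tested strands of the Clcn5 intron cluster were mostly not called, with miR-188-5p alone higher in lung (log2 1.70, adjusted p = 0.000662).

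Some highly abundant miRNAs were not called. miR-22-3p was at 35840 to 48190 CPM in lung and 31450 to 49750 in testicle (log2 -0.09, SE 0.15, adjusted p = 0.556). With libraries thinned to the smallest it was called higher in testicle (log2 -0.38, adjusted p = 0.0229). miR-99a-5p was at 28720 to 44470 and 26600 to 41090 CPM (log2 -0.01, SE 0.16, adjusted p = 0.944). The organs overlapped in both, and a p that misses the threshold does not show equality. The miR-99/100/125 list as a whole had 5 of 11 tested names higher in lung, 3 higher in testicle and 3 not called. Over all tested miRNAs, 38.9% were higher in lung and 44.2% higher in testicle. The list's median was -0.01 with a sign that flipped with the scaling (-0.08 to 0.09). miR-100-5p was not called (log2 -0.33, adjusted p = 0.0638). It was called higher in testicle with each single lung library left out (adjusted p = 0.000432 without right lung 1 to 0.0489 without left lung 1) and without left testicle 1 (adjusted p = 0.0309). It was also called with RLE scaling (0.0385), library totals (0.00344), DESeq2 (0.0236), the replicate block (0.0483), 1 name per set of identical counts (0.0183) and thinning (0.00254).

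miRNAs with the same seed did not always go the same way. Among 48 seeds with at least 2 tested members, 10 had members called in both directions. miR-10a-5p, encoded in the Hoxb region and annotated as intergenic (chr11:96317165-96317274), was at 16260, 17470 and 25500 CPM in lung and 766.2, 1165 and 1418 in testicle. miR-10b-5p, in an intron of Hoxd3 and Hoxd4 (chr2:74726070-74726137), was at 172.1, 315.6 and 426.2 CPM in lung and 5290, 6411 and 8107 in testicle (lowest, median, highest in each). The organs did not overlap for either, and the differences were 4.09 (SE 0.21, adjusted p = 2.42e-10) and -4.46 (SE 0.24, adjusted p = 3.98e-10). The mature strands printed above differ by the substitution U12A over 23 bases, with miR-10a-5p first and positions counted from the 5′ end. miR-196a-5p and miR-196b-5p, also of Hox clusters, were both higher in testicle.

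The seed AGCAGCA of the 15/16 family split as well. miR-195a-5p and miR-497a-5p, of 1 cluster, were higher in lung by 1.26 and 1.10. miR-16-5p and miR-15b-5p were higher in testicle (log2 -0.67 and -1.61), and miR-15a-5p was not called. miR-322-5p was 0.46 higher in lung (adjusted p = 0.0178) and lost its call without any of left lung 2 (adjusted p = 0.0509), left lung 3 (0.0505), right lung 1 (0.065), right lung 2 (0.0636), right lung 3 (0.0785), left testicle 1 (0.137) or right testicle 1 (0.105). Under the seed ACUGGCC, miR-193a-3p was 5.86-fold higher in lung and miR-193b-3p 5.30-fold higher in testicle. Within AAAGUGC, miR-20a-5p and miR-17-5p were higher in testicle (log2 -2.53 and -1.65) and miR-20b-5p, from the X chromosome, higher in lung (log2 1.25). These pairs and groups were picked out after their values were seen.

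Summed by seed, the balance of the organs changed in a few large families. Of 319 tested seeds, 112 were higher in lung (35.1%) and 152 higher in testicle (47.6%), with names that have a RefSeq sequence covering 84.7% to 86.5% of the counts of a lung library and 85.6% to 86.3% of those of a testicle library. The let-7 seed GAGGUAG held 20% ± 2.39 (SD, n = 6) of lung counts and 12.4% ± 2.39 of testicle counts. Lung libraries were at 16.5% to 23.7% and testicle libraries at 8.21% to 15.3%, without overlap. Its log2 difference was 0.55 (adjusted p = 0.0257), and the call was lost without left testicle 1 (adjusted p = 0.0714), left testicle 2 (0.0842) or left testicle 3 (0.0627). The seed GGCAGUG of miR-34 and miR-449 went from 2.02% ± 0.536 in lung to 12.0% ± 1.31 in testicle (log2 -2.77, SE 0.17, adjusted p = 2.08e-09). This sum leaves out miR-34c-5p, for which RefSeq gave no sequence, so the family's share is understated in both organs. The 5p arm held a mean of 32.1% of miR-34c counts in lung (mean 5239) and 39.6% in testicle (mean 34730). The partner seed AUCACUA, carried by miR-34b-3p and miR-34c-3p, went from 0.371% ± 0.117 to 4.16% ± 0.778. The miR-181 seed ACAUUCA held 5.37% ± 0.577 in lung and 1.41% ± 0.0679 in testicle (log2 1.79, SE 0.18, adjusted p = 3.4e-07).

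The scale of the seed sums differed from that of single miRNAs. The median over seeds was -0.37 with their own scaling and -0.12 with that of the single miRNAs. AGCAGCA (miR-16-5p and others) and AGCUGCC (miR-22-3p) were called higher in testicle with the first (-0.45 and -0.33, adjusted p = 0.00163 and 0.0225) and not with the second (-0.20 and -0.09, adjusted p = 0.159 and 0.551). Both also lost the call without any 1 of the 6 lung libraries, at adjusted p of 0.0649 to 0.199 for the miR-16 seed and 0.15 to 0.489 for the miR-22 seed. The latter lost it further without left testicle 1 (0.0516) or left testicle 3 (0.0527).

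**Figure D4:**
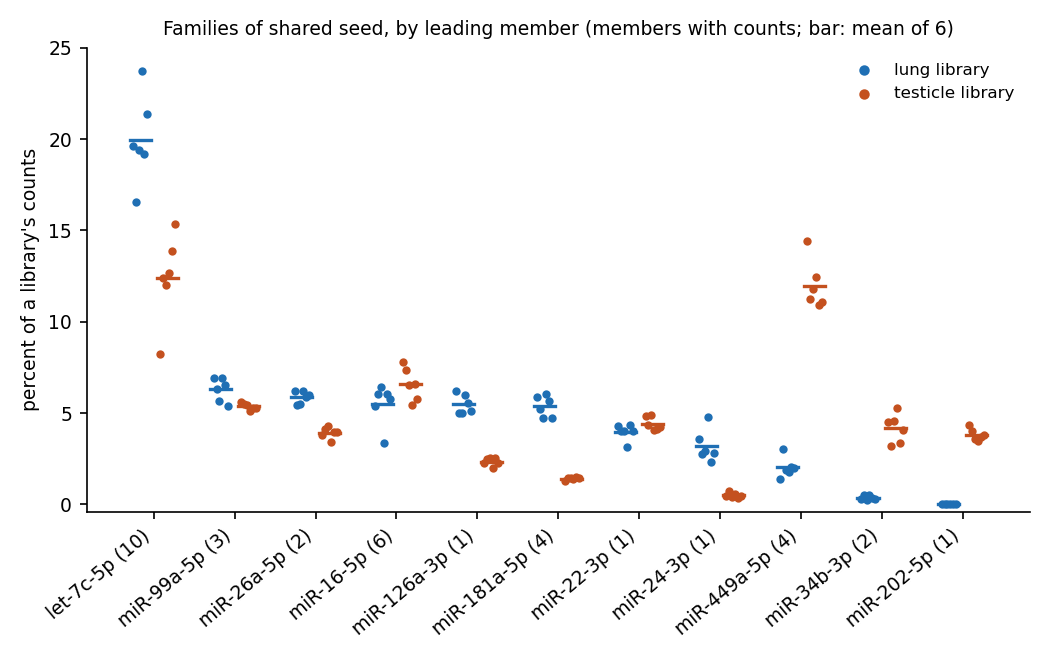
Percent of a library's counts (y axis) held by 11 seed families in 6 lung (blue) and 6 testicle (orange) libraries. Bars are means of 6. The families have the largest shares in either organ among those summed, each named by its leading member with its number of members. Names without a RefSeq sequence were not summed, so a family that lacks some of its members can be missing or understated. The let-7 family lies at 16.5% to 23.7% in lung and 8.21% to 15.3% in testicle, and the family of miR-449a-5p at 1.41% to 3.01% and 10.9% to 14.4%.

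The strand kept from a hairpin also differed between the organs. A pair of arms was tested where both were listed and held a mean of at least 50 counts, on the log2 ratio of 5p to 3p counts with 0.5 added to each. Of 165 pairs tested, 56 differed (33.9%), 27 with relatively more 5p in lung (16.4%) and 29 with relatively more 3p in lung (17.6%). Libraries of the organs did not overlap in 28 of the 165 pairs (17%). In 31 of the 56, an arm averaged under 10 counts in an organ. The ratio then rests on few counts and can depend on the added 0.5, most of all where an arm had none. Among 78 pairs with both arms at 10 or more counts, 25 differed, 13 towards 5p and 12 towards 3p in lung. The pairs named below are among these 78, with SE and adjusted p from the fit of all 165.

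The pairs whose leading arm changed between organs with a call were miR-324 and miR-503, the first of them chosen after its values were seen. miR-324 is encoded within an exon of Dvl2 (chr11:70012043-70012131, plus strand), and its strands are these.
miR-324-5p: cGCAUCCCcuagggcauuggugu
miR-324-3p: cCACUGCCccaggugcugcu
The 5p arm made up 28.0% ± 9.91 (SD, n = 6) of both arms' counts in lung and 66.6% ± 7.24 in testicle. The lung libraries were at 16.3% to 41.4% and the testicle libraries at 55.9% to 74.9%, on either side of an even split. The log2 ratio differed by -2.43 (SE 0.38, limma adjusted p = 0.000278). As single strands, miR-324-5p was higher in testicle (log2 -1.29, adjusted p = 0.0175) and miR-324-3p higher in lung (log2 0.99, adjusted p = 0.00485).

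miR-503 (chrX:53053984-53054054, minus strand) lies in the cluster with miR-322 and carries these strands.
miR-503-5p: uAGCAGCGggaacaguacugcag
miR-503-3p: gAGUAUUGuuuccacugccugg
The 5p arm held 36.6% ± 17 in lung and 73.5% ± 5.47 in testicle. Right lung 1 was at 5.27%, the other lungs at 33.6% to 51.2% and the testicles at 66.4% to 81.5%. The log2 ratio differed by -2.52 (SE 0.61, limma adjusted p = 0.00602), and by -1.90 without right lung 1 (adjusted p = 0.000469). miR-503-5p itself was not called (log2 0.11, adjusted p = 0.716), and miR-503-3p was 7.66-fold higher in lung.

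Other pairs kept their leading arm and changed its share. miR-425 was at 80.4% ± 14.6 of 5p in lung, with right lung 1 at 50.9%, and 97.6% ± 0.326 in testicle. The log2 ratio differed by -3.14 (limma adjusted p = 9.29e-05), and by -2.70 without right lung 1. The 5p arm of miR-126a, the lesser strand of this endothelial hairpin, held 10.4% ± 2.83 in lung and 2.43% ± 0.928 in testicle (log2 ratio 2.25, SE 0.32, limma adjusted p = 0.000111). miR-31 went from 95.7% ± 0.824 of 5p in lung to 87.3% ± 1.32 in testicle, with tight libraries in both organs (log2 ratio 1.71, limma adjusted p = 7.96e-05). The 5p arms of miR-342 and miR-203 held 9.35% ± 2.70 and 20.2% ± 7.46 in lung against 4% ± 1.12 and 10% ± 2.65 in testicle.

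**Figure D5:**
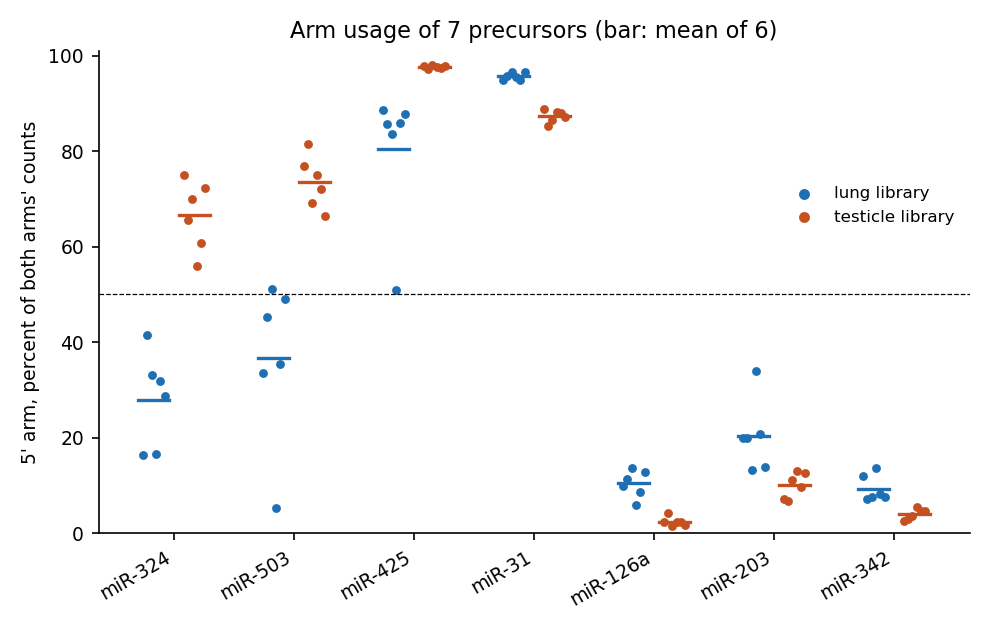
Share of the 5′ arm in both arms' counts (percent, y axis from 0) for 7 precursors in 6 lung (blue) and 6 testicle (orange) libraries; bars are means of 6 and the dashed line marks 50%. miR-324 lies below the line in all lungs (16.3% to 41.4%) and above it in all testicles (55.9% to 74.9%).

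The organ difference was also tested for a dependence on side. With edgeR, 0 of 489 miRNAs (0%) showed an organ difference that varied with side, with 17 at an unadjusted p under 0.05 and a smallest adjusted p of 0.226. DESeq2 called 1, miR-532-5p. That miRNA was at 1609 to 3292 CPM in lung and at 4.07, 9.66 and 4.04 CPM in left testicles 1, 2 and 3, at 17.7 in right testicle 1 and at 1544 and 1807 in right testicles 2 and 3. The right testicles themselves thus fell on both sides of the gap, and between organs miR-532-5p was not called (adjusted p = 0.161).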

How the data were processed

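Small RNA of 12 lung and testicle libraries was analysed, and the 6 eye libraries were not used. Per the labels' protocols, a spin-column kit gave total RNA, and BGI-500 libraries were made. GRCm38.p6 is the build in the submitters' processing notes. For aligner, counter, strand, multi-mapping and molecular identifiers, nothing is given in the sources used. The authors deposited raw counts for each mature miRNA name. In 10 sets of names (22 in all) counts were identical in each library. The 12 surplus names, kept, held 0.206% to 0.408% of lung and 3.64% to 5.54% of testicle counts. A floor of 3 counts is 1.08 to 1.18 CPM in lung and 1.58 to 3.15 in testicle, and intervals cover counting error only.

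Counts were filtered (filterByExpr), TMM-scaled and tested in edgeR 4.0.16 (R 4.3.3), with organ as the only term and Benjamini-Hochberg adjustment at 0.05. CPM values are TMM-scaled unless given as of totals. Arm ratios were tested with limma 3.58.1 and seed sums with edgeR. DESeq2 1.42.0 was an alternative, with other scalings, filters, sides, the replicate block, thinning and each library left out. Shares of the 5p arm use unscaled counts. Procedures were tested on simulated data. RefSeq gave a sequence for 1209 and a position for 1381 of 1431 names, and GENCODE M21 the overlapping genes.

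Named miRNAs are, per direction, the 15 with the largest change among those called, non-overlapping and at 50 CPM or more in the higher organ, and further the 8 most abundant per organ, up to 4 per list, the 5 most abundant not called, 8 arm pairs per direction and 8 seeds per organ. Others are named as examples. The members and the 35 lists were chosen with earlier results of these data known, and no list was tested as a set.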

Additional observations from a re-analysis of the deposited data

Results flagged for a closer look

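Of 292 sets of 6 libraries examined, 29 had a library further from the rest than Dixon's 95% critical value allows, where chance gives about 1 in 20. Right lung 1 accounts for 14 of them. It was highest among lungs, in CPM, for miR-10a-5p (25500), miR-146a-5p (26780), miR-181d-5p (1336), miR-183-5p (4283), miR-196b-5p (25.81), miR-204-5p (1695), miR-211-5p (449.4), miR-23a-3p (30810), miR-429-3p (15000) and miR-490-5p (821.4). It was lowest for miR-15a-5p (915.6), miR-200a-3p (1811) and miR-21a-5p (13490), and for the 5p share of miR-425 (50.9%). These CPM are TMM-scaled, and the low scaling factor of right lung 1 (0.761) raises its CPM against the other lungs. In CPM of totals, the Hox cluster names, with miR-10a-5p, summed to 19560 in right lung 1 and 17370 to 18840 in the others. The Chrm2 intron names, with miR-490-5p, summed to 625.7 against 122.9 to 167.1. Which flags would remain on library totals was not tested.

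In the other lungs, left lung 1 was high for miR-196a-5p (9.098 CPM) and miR-878-5p (1.733), left lung 2 for miR-434-3p (124.8), right lung 3 for miR-451a (6785) and right lung 2 for miR-743a-5p (0.3825, a single count). Among testicles, left testicle 1 was high for miR-125b-5p (6178 CPM), miR-196a-5p (808.9), miR-19b-3p (2874), miR-501-3p (296.5) and miR-532-3p (146.7). Left testicle 3 was low for miR-294-3p (12.13) and left testicle 2 high for miR-295-3p (18.87). Right testicle 1 was low for miR-301a-3p (240.3) and high for miR-547-3p (5614), and right testicle 2 was high for miR-764-5p (0.4681, a single count). The organ difference of miR-532-5p varied with side by -6.894 on the log2 scale in DESeq2 (adjusted p = 8.56e-05), which edgeR did not call.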

How the results depend on the processing

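Of the 406 calls, 0 were called in the opposite direction in any setting, and 320 (libraries thinned to the smallest) to 405 (replicate block) of them were kept. The labels do not say that a replicate number marks a shared mouse, and 8 of 18 same-numbered pairs, not all, had deviations correlated above 0.1 (range -0.275 to 0.529), so the numbers were not taken to pair the libraries. As a hint of pairing, 5 of 6 left and right pairs within an organ were above 0.1, and 9 of 12 libraries correlated best with their own number. Sides summed by number kept 374 of the 406 calls, and miR-16-5p then missed the threshold (-0.56, adjusted p = 0.053). With the replicate block, 190 miRNAs were higher in lung and 218 higher in testicle. Leaving out 1 library gave 173 to 214 higher in lung, 207 to 228 higher in testicle, 146 to 189 and 192 to 211 at least 2-fold higher in lung and testicle, 23 to 34 arm pairs with more 5p and 25 to 34 with more 3p in lung, and 113 to 129 and 143 to 160 seeds higher in lung and testicle. Without a filter on low counts, 330 miRNAs were higher in testicle, 252 and 316 were at least 2-fold higher in lung and testicle, 183 seeds were higher in lung and 3 miRNAs varied with side, where DESeq2 gave 1. The count with more 5p in lung was 43 with 5 counts added to each arm, 16 at 200 counts or more and 13 with each arm at 10 or more, and with more 3p it was 16 and 12 under the last 2. miR-25-3p, higher in testicle by main value -0.69, was at 0.034 over right libraries only (adjusted p = 0.928), and the cause was not tested. Of the named items, 110 of 145 miRNAs, 17 of 17 arm pairs and 6 of 11 seeds were stable. They kept direction and side of the threshold in each setting that included them. Among these arm pairs, only miR-324, miR-503, miR-425 and let-7i had each arm at 10 or more counts in each organ. The others were absent from that setting, and their ratios rest on an arm averaging under 10 counts in an organ. A testicle library held 952608 to 1893132 counts, fewer than each lung library, which limits the precision of low testicle values.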

Other observations

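A few miRNAs were high in some libraries of an organ and almost absent from the others. By a rule chosen after seeing the data (highest library at 50 CPM or more, and at least 50 times the lowest), 4 miRNAs were uneven in lung and 6 in testicle, of which miR-532-3p and miR-669c-5p were uneven in both. miR-871-3p was at 7413, 21120 and 11220 CPM in left testicle 2 and right testicles 1 and 2, and at 41.8, 25.9 and 23.2 in left testicles 1 and 3 and right testicle 3. miR-881-3p, a neighbour of the same family, had the reverse pattern, at 5146, 4707 and 6681 CPM in left testicles 1 and 3 and right testicle 3, and at 17.03, 11.25 and 21.07 in the other 3. The libraries high in either miRNA were thus low in the other.

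In lung, miR-744-5p was at 438.4, 614.5 and 461.7 CPM in left lungs 1 and 3 and right lung 2, and at 6.57, 6.07 and 13.7 in left lung 2 and right lungs 1 and 3, while the 6 testicles lay at 168.5 to 306.7. miR-465c-5p was at 17.8 CPM in left testicle 3 and at 4881 to 12380 in the other testicles. Neither side nor replicate number separates these libraries. The fold changes of miR-871-3p and miR-881-3p have the standard errors this spread gives, 2.01 and 1.92 on the log2 scale.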
